A study of Homo sapiens with 6 samples.

Results

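The hydroxysteroid dehydrogenases HSD3B1, HSD3B2, HSD3B7, HSD11B2, HSD17B2, HSD17B4, HSD17B8, HSD17B10, HSD17B11 and HSD17B12 were followed in LoVo cells after knockdown of SRSF11. These 10 genes were found by name among the 58735 genes of the count table. They were selected on measured values in 1 respect, since HSD3B1 was among the largest rises of this same comparison, and its 9 relatives show whether it stood alone. The difference of HSD3B1 is therefore given as a description with no test, and only the relatives are read from the test.

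LoVo is an established human colorectal cancer cell line, and SRSF11 is a serine and arginine rich protein of pre-mRNA splicing. Cells received a negative control siRNA (si-nc, 3 libraries) or siRNA against SRSF11 (si-SRSF11, 3 libraries). Poly-A RNA was read as 150 bp paired-end reads. Which of the study's siRNA sequences was used for these libraries is not given in the sources used here, nor whether it was a single sequence. The knockdown thus rests on 1 labelled siRNA condition in 1 line. The time from transfection to harvest is not given for the libraries. The replicates are described as 3 pairs of independent RNA samples, and nothing says that they came from separate cultures, so p-values measure the spread between these libraries. How the samples were paired is not given, and the main test treated the libraries as unpaired.

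Hydroxysteroid dehydrogenases move a hydroxyl or keto group of a steroid between its alcohol and ketone forms, which switches hormones on or off. HSD3B1 and HSD3B2 turn pregnenolone-type steroids into progesterone-type ones, HSD3B1 mainly in placenta and peripheral tissue and HSD3B2 in adrenal and gonad. Many genes with the name HSD17B work chiefly on fatty acids, and the intestinal epithelium is known for HSD11B2, which inactivates cortisol, and HSD17B2, which inactivates oestradiol and testosterone.

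The knockdown was seen in the counts. SRSF11 lay at 87.6, 84.3 and 87.5 CPM (counts scaled to the library size, with TMM factors) in the si-nc libraries and at 50.5, 48.6 and 49.5 CPM in the si-SRSF11 libraries. This is a log2 fold change of -0.81 (SE 0.054, adjusted p = 6.1e-10 by edgeR's quasi-likelihood test), or 57.2% of si-nc. Libraries held 14369525 to 16685719 counts. Of 15801 genes tested, 24.6% were called at an adjusted p under 0.05, 13.2% as higher and 11.4% as lower in si-SRSF11, and the median log2 fold change was 0.00. Scaling by library size alone left 1585 genes higher and 2289 lower, against 2081 and 1805 here.

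HSD3B1 (ENSG00000203857) lies on the plus strand of chromosome 1 at 119507198 to 119515054 (GRCh38, GENCODE 29) among close copies of itself. Its coding sequence of 1119 nt had 93.6% identity with that of HSD3B2, 71 aligned bases differing, and 86.3 to 91.9% with the HSD3BP1 to HSD3BP5 pseudogenes. No stretch of 100 nt of its coding sequence occurred in HSD3B2 or in any of these pseudogenes, and its longest identical run with the coding sequence of HSD3B2 was 74 nt. Over the whole transcript, 0.254% of the 100-nt stretches of HSD3B1 occurred in HSD3B2. The 60 nt of HSD3B1 in which it differs most from HSD3B2 are shown, because they hold bases by which a read can be told from HSD3B2. The coding sequences also hold a stretch of 60 nt with 0 differences, and the part of a read inside it cannot tell the genes apart. That stretch is shorter than a full read of 150 bp. Capitals mark the 11 bases that differ from HSD3B2, and the stretch printed here is GRCh38, plus strand, inside a coding exon. The printed stretch was not compared with the pseudogenes.
HSD3B1, chr1:119514028-119514087: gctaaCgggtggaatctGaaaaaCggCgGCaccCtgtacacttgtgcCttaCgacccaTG

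HSD3B1 had 60, 77 and 80 counts in si-nc and 166, 185 and 176 in si-SRSF11. These are 4.14, 5.07 and 5.14 CPM against 10.6, 11.4 and 10.8 CPM. Every si-SRSF11 library was above every si-nc library, and the lowest of the 6 was si-nc 1. On average HSD3B1 lay at 4.78 ± 0.557 CPM in si-nc and at 10.9 ± 0.402 CPM in si-SRSF11 (SD, n = 3), a log2 fold change of 1.19 (SE 0.14) or 2.28-fold. These values chose the set and carry no test. The log2 fold change lay between 1.10 and 1.25 when each library was left out in turn.

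In the ranking of rises, HSD3B1 stood at place 2 of 1789 protein-coding genes that were called higher, kept both groups apart and had a mean log2 CPM of at least 2. HSD3B1 was chosen for its rise in this same comparison, so its passing of these criteria and its place are descriptions and no further result. The gene next above it was ZAP70, a T cell receptor kinase, with a log2 fold change of 1.58 (SE 0.21). The gene next below was INSIG1, which holds back the maturation of the sterol regulators, with 1.18 (SE 0.067). HSD3B1 and INSIG1 differed by less than the standard error of either gene.

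HSD3B2 had 1 count in si-nc 1 and 0 in the other 5 libraries. A count of 0 in a library allows up to 3 counts, which is 0.184 to 0.207 CPM. HSD3BP1, HSD3BP2, HSD3BP3 and HSD3BP4 had 0 counts in every library, and HSD3BP5 had 4, 4 and 2 in si-nc and 0, 2 and 3 in si-SRSF11. Within the HSD3B cluster the counts thus lay at HSD3B1 in both groups. How the counting program treated reads that fit several copies is not given in the sources used here.

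HSD3B7, on chromosome 16 at 30985207 to 30989152, acts on the sterol ring in bile acid synthesis and not on steroid hormones. It had 86, 77 and 81 counts in si-nc and 100, 105 and 117 in si-SRSF11, or 5.40 ± 0.465 and 6.68 ± 0.433 CPM. The groups did not overlap, but the log2 fold change of 0.31 (SE 0.15) missed the threshold, with an adjusted p of 0.14 by edgeR. Of its exon bases 64.6% are shared with AC135048.4, an unclassified gene with 0, 0 and 1 counts in si-nc and 5, 7 and 3 in si-SRSF11. How reads in this overlap were assigned was not tested.

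Per gene length, HSD3B1 lay beside HSD3B7 in si-nc and above it in si-SRSF11. The ratio of HSD3B1 to HSD3B7, in TPM (counts scaled by gene length and by library), was 0.713, 1.02 and 1.01 in the si-nc libraries and 1.70, 1.80 and 1.54 in the si-SRSF11 libraries. The ratio rests on the rise of HSD3B1 that chose the set, so it too is a description.

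**Figure D1:**
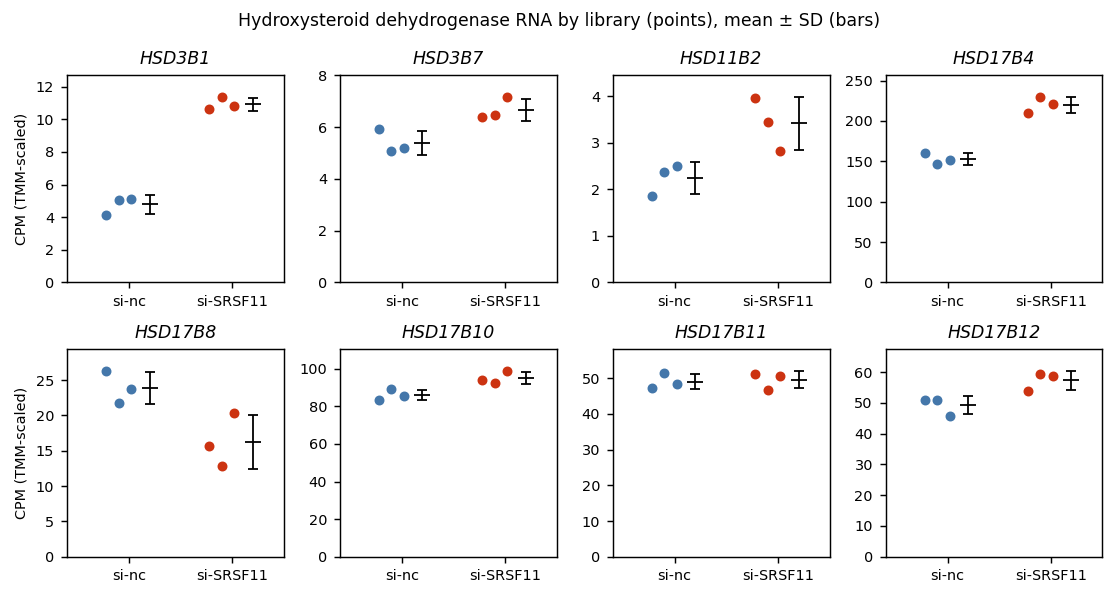
CPM of the 8 hydroxysteroid dehydrogenases with enough counts to test, one panel each, in the 3 si-nc (blue) and 3 si-SRSF11 (red) libraries, in the order of their numbers. Points are libraries, bars are mean ± SD, and each axis starts at 0. HSD3B1 goes from 4.78 to 10.9 CPM, HSD17B4 from 152.8 to 219.8, HSD17B8 falls from 23.9 to 16.3, and HSD17B11 overlaps between the groups.

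Of the 10 dehydrogenases 8 passed the filter of at least 10 counts in at least 3 libraries, and all 8 passed it in all 6 libraries. HSD3B2 and HSD17B2 did not. Of the 7 relatives tested, 4 were called, 3 as higher (HSD17B4, HSD17B10 and HSD17B12) and 1 as lower (HSD17B8), against 24.6% of all genes tested. The groups did not overlap in 6 of the 7, against 38.8% of all genes tested. No relative had a log2 fold change as large as that of HSD3B1, the range being -0.56 to 0.60.

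HSD11B2 and HSD17B2, the enzymes known for inactivating steroid hormones in the intestinal epithelium, were both low in LoVo cells. HSD11B2 (chromosome 16, 67430652 to 67437553) had 27, 36 and 39 counts in si-nc and 62, 56 and 46 in si-SRSF11. Every si-SRSF11 library was above every si-nc library, from 2.25 ± 0.338 to 3.41 ± 0.573 CPM (SD, n = 3). Its log2 fold change of 0.60 (SE 0.23) was the largest of the tested relatives but missed the threshold, with an adjusted p of 0.058 by edgeR. Without si-SRSF11 3, the lowest of its group, it was 0.71 with an adjusted p of 0.036, the only alternative run in which HSD11B2 passed. Without si-SRSF11 1 it was 0.47 with an adjusted p of 0.20, and without si-nc 1 it was 0.48 with an adjusted p of 0.20.

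HSD17B2 (chromosome 16, 82035004 to 82098534) had 2, 6 and 2 counts in si-nc and 1, 2 and 1 in si-SRSF11. At this depth no difference in HSD17B2 was detectable, and with no filter on low counts its adjusted p by edgeR was 0.57. Of both inactivating enzymes of the intestinal epithelium, HSD11B2 was thus measurable in this line and HSD17B2 was at the limit of detection.

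HSD17B4 (chromosome 5, 119452443 to 119637199) is the peroxisomal D-bifunctional protein, which carries out the hydration and dehydrogenation steps of peroxisomal beta-oxidation. It had 160.3, 146.7 and 151.3 CPM in si-nc and 209.3, 229.3 and 220.9 CPM in si-SRSF11. All 3 si-SRSF11 libraries stood above all 3 si-nc libraries, with 160.3 and 209.3 CPM as the nearest pair. The log2 fold change was 0.53 (SE 0.051, adjusted p = 1.1e-07 by edgeR), or 1.44-fold. This was the strongest call among the relatives, and it rested on 2230 to 3726 counts per library.

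HSD17B8 (chromosome 6, 33204642 to 33206831) oxidises oestradiol and, with CBR4, forms the ketoacyl reductase of mitochondrial fatty acid synthesis. It had 381, 330 and 370 counts in si-nc and 245, 208 and 331 in si-SRSF11. In CPM these are 26.3, 21.7 and 23.8 against 15.7, 12.8 and 20.3. HSD17B8 was lower in all 3 si-SRSF11 libraries, but si-SRSF11 3 lay close to the lowest si-nc library. HSD17B8 fell by 0.56 on the log2 scale (SE 0.12, adjusted p = 0.0018 by edgeR), the only fall called among the relatives. Its log2 fold change ran from -0.75 to -0.41 when each library was left out, with adjusted p of at most 0.017.

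HSD17B10 (chromosome X, 53431258 to 53434373) breaks down isoleucine in mitochondria and is a subunit of mitochondrial RNase P. It had 83.5, 89.0 and 85.3 CPM in si-nc and 94.0, 92.6 and 98.7 CPM in si-SRSF11. The groups did not overlap, and the step between them was small next to that of HSD17B4. The log2 fold change was 0.15 (SE 0.051), with an adjusted p of 0.041 by edgeR. This call was lost in 5 of 7 other settings and whichever library was left out, with adjusted p of 0.050 to 0.17, so HSD17B10 stood at the threshold.

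HSD17B12 (chromosome 11, 43680558 to 43856617) is the ketoacyl-CoA reductase of fatty acid elongation. It had 50.9, 50.9 and 45.8 CPM in si-nc and 53.8, 59.3 and 58.7 CPM in si-SRSF11. The groups did not overlap, with a log2 fold change of 0.22 (SE 0.063, adjusted p = 0.014 by edgeR). Leaving out si-nc 3 gave 0.17 and an adjusted p of 0.10, and leaving out si-SRSF11 2 gave 0.19 and 0.064. Of its exon bases 21.6% are shared with AC068205.2, AC087521.2 and AC087521.4, of which none had more than 14 counts in a library.

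HSD17B11 (chromosome 4, 87336610 to 87391386) sits on lipid droplets. It had 47.3, 51.5 and 48.4 CPM in si-nc and 51.2, 46.8 and 50.7 CPM in si-SRSF11. The libraries of both groups were interleaved, and the log2 fold change was 0.014 (SE 0.062, adjusted p = 0.90 by edgeR). HSD17B11 and HSD17B12 had nearly the same CPM in si-nc, and of the pair only HSD17B12 was called. The difference between these 2 genes' fold changes was not tested.

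**Figure D2:**
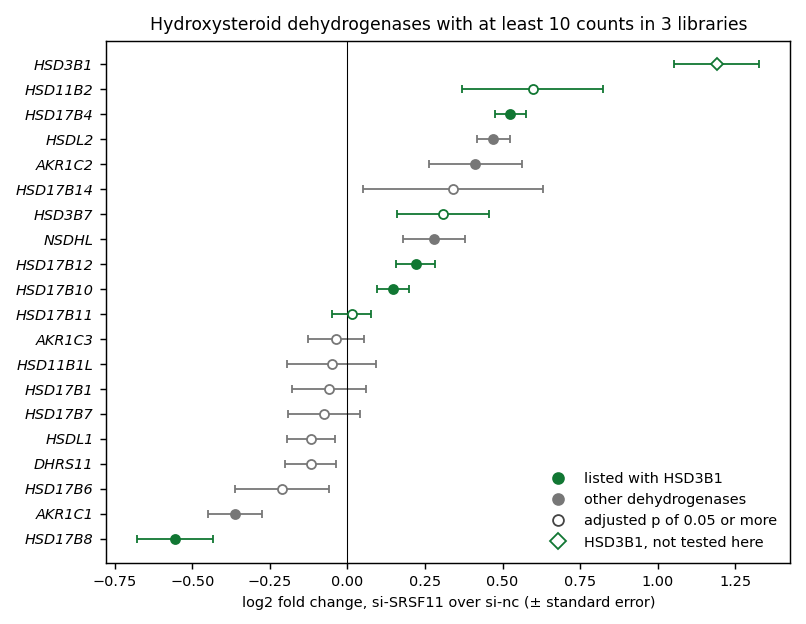
Log2 fold change of si-SRSF11 over si-nc (horizontal axis, bars are ± standard error) for each tested hydroxysteroid dehydrogenase, in green for the set of 10 and in grey for other dehydrogenases. Filled points have an adjusted p under 0.05, and the open diamond is HSD3B1, given without a test. HSD3B1 at 1.19 stands to the right of all others, which run from -0.56 (HSD17B8) to 0.60 (HSD11B2).

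The wider family was read from a list of 18 further dehydrogenases that act on hydroxysteroids or carry the family name. Of these 12 were tested and 4 were called, 3 as higher and 1 as lower, against 13.2% higher and 11.4% lower over all genes, and the median log2 fold change was -0.06 against 0.00 over all genes. HSDL2, a dehydrogenase-like protein with a sterol carrier domain, had 942, 920 and 1008 counts in si-nc and 1412, 1414 and 1407 in si-SRSF11. HSDL2 rose by a log2 fold change of 0.47 (SE 0.054, adjusted p = 1.2e-06 by edgeR). AKR1C1, which inactivates progesterone, fell from 27.3 ± 2.70 to 21.2 ± 1.00 CPM (log2 fold change -0.36, SE 0.088, adjusted p = 0.0040).

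The other pair of calls in this wider list stood at the threshold. NSDHL, of cholesterol synthesis, had a log2 fold change of 0.28 (SE 0.099, adjusted p = 0.043 by edgeR) and overlapping groups, and lost its call in 3 of 7 other settings and in 4 of 6 fits with a library left out. AKR1C2, which inactivates dihydrotestosterone, had a log2 fold change of 0.41 (SE 0.15, adjusted p = 0.049) and lost its call in all 7 other settings and in 5 of 6 fits with a library left out. AKR1C1 and AKR1C2 share 17.4% and 32.9% of their 100-nt stretches with other AKR1C genes, and how shared reads were assigned was not tested. HSD11B1, which activates cortisone to cortisol, had 0 counts in all libraries, and HSD17B3, which makes testosterone, had 1 count in all.

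The levels of different genes are compared per gene length, in TPM over all annotated exon bases. HSD17B10 was highest in both groups, at 231.8 ± 6.54 TPM in si-nc and 242.1 ± 6.15 TPM in si-SRSF11. In si-nc it was followed by HSD17B8 at 61.4 ± 6.23, HSD17B11 at 60.6 ± 2.40, HSD17B4 at 43.1 ± 2.21 and HSD17B12 at 18.9 ± 1.18 TPM. HSD17B8 and HSD17B11 did not differ beyond their spread. In si-SRSF11 the order of levels was HSD17B4 at 58.5 ± 2.04, HSD17B11 at 57.8 ± 3.37, HSD17B8 at 39.3 ± 8.64 and HSD17B12 at 20.7 ± 0.738 TPM, HSD17B4 and HSD17B11 lying within their spread.

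The low end held HSD3B7 at 6.51 ± 0.603, HSD3B1 at 5.88 ± 0.652 and HSD11B2 at 2.52 ± 0.367 TPM in si-nc, of which HSD3B7 and HSD3B1 did not differ beyond their spread. In si-SRSF11 they were at 7.59 ± 0.355, 12.7 ± 0.456 and 3.63 ± 0.689 TPM, with HSD3B1 now above HSD3B7. HSD17B2 and HSD3B2 were at most 0.124 TPM in every library. HSD3B1 was 1.18 to 1.48% of the summed TPM of the 10 genes in si-nc and 2.71 to 3.09% in si-SRSF11, and HSD17B10 was 52.3 to 55.1% over all 6 libraries. These shares rest on all annotated exon bases and depend on that choice of length. They were not computed with the longest coding transcripts.

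The places of HSD17B4 and HSD17B12 depend on the length used. The annotated exons of HSD17B4 cover 10664 nt, its longest coding transcript 2881 nt. For HSD17B12 these lengths are 7838 and 2571 nt. Per kilobase of the longest coding transcript, an alternative chosen after the data were seen, si-nc levels were 89.5 CPM for HSD17B10, 53.0 for HSD17B4, 26.0 for HSD17B11, 24.2 for HSD17B8 and 19.1 for HSD17B12. HSD17B4 then stood above HSD17B8 in both groups, with 76.3 against 16.4 CPM per kilobase in si-SRSF11. HSD17B12 also stood above HSD17B8 in si-SRSF11, at 22.3 against 16.4 CPM per kilobase, the reverse of their TPM order. HSD3B1 remained near HSD3B7 in si-nc on this scale, at 2.85 and 2.45 CPM per kilobase.

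**Figure D3:**
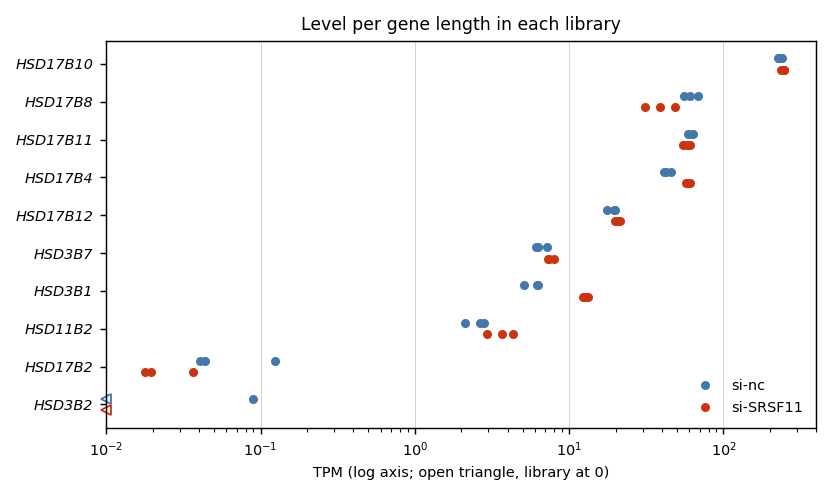
Level per gene length (TPM, log axis) of the 10 dehydrogenases in the 3 si-nc (blue) and 3 si-SRSF11 (red) libraries, ordered by level in si-nc. Each point is 1 library, and open triangles at the left edge are libraries at 0. The levels run from 242.1 TPM (HSD17B10, mean of si-SRSF11) down to HSD17B2 and HSD3B2, at most 0.124 TPM in every library.

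Around HSD3B1, 21 other annotated genes within 250 kb on chromosome 1 were examined, of which 7 had any count and 3 were tested. PHGDH (119648411 to 119744226, plus strand), the first enzyme of serine synthesis, had 7829, 7850 and 8388 counts in si-nc and 6702, 7247 and 7347 in si-SRSF11. The groups did not overlap, and PHGDH fell from 531.6 ± 13.1 to 441.7 ± 11.6 CPM (log2 fold change -0.27, SE 0.045, adjusted p = 1.4e-04 by edgeR).

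The other 2 of these 3 were not called. ZNF697, a zinc finger gene, had a log2 fold change of -0.21 (adjusted p = 0.14 by edgeR), and the antisense gene AL359915.2 had 0.02 (adjusted p = 0.92). GAPDHP32, the closest neighbour with a count, had 1, 1 and 0 counts in si-nc and 4, 0 and 3 in si-SRSF11. LINC00622 had 2 counts in si-nc 3 and 0 elsewhere. The nearest neighbour tested was ZNF697.

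**Figure D4:**
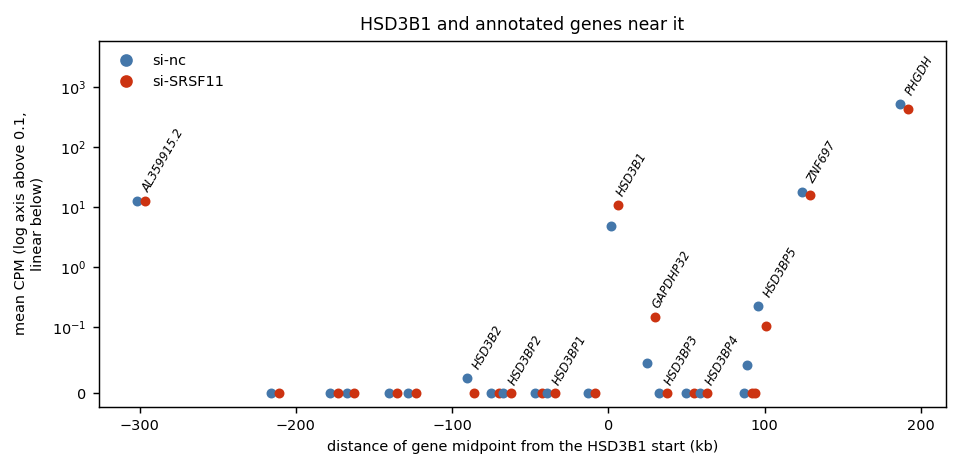
Mean CPM in si-nc (blue) and si-SRSF11 (red) of HSD3B1 and 21 annotated genes that reach within 250 kb of it, at the distance of each gene's midpoint from the HSD3B1 start (kb). The vertical axis is logarithmic above 0.1 CPM and linear below, and points at 0 are genes with no counts. HSD3B1 is higher in si-SRSF11, PHGDH is lower, and the HSD3B pseudogenes lie at or near 0.

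The genes whose log2 CPM ran most like that of HSD3B1 over the 6 libraries were HPGD (Pearson r = 0.9995), TRA2B (0.9978) and NFS1 (0.9972), of 11020 protein-coding genes ranked. HPGD, the dehydrogenase that inactivates prostaglandins, went from 30.3 ± 1.19 to 40.8 ± 0.514 CPM. TRA2B, a splicing activator, went from 122.0 ± 3.50 to 150.3 ± 1.91 CPM, and NFS1, the cysteine desulfurase of iron-sulfur cluster assembly, from 27.6 ± 1.09 to 36.5 ± 0.0770 CPM. These r describe 6 points in 2 groups that share their libraries, and 504 genes were over 0.95, so a step between the groups alone gives a high r.

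Genes listed for the steps of steroid synthesis before HSD3B1 differed widely in level. TSPO, STARD3, FDX1 and FDXR had means of 279, 60, 64 and 68 CPM in si-nc. In si-SRSF11 their means were 276, 60, 60 and 67 CPM, and none of them was called. CYP11A1 and STAR were near 0 counts. Of 17 genes of steroid hormone synthesis, 8 were tested and only SRD5A3, a polyprenol and steroid reductase, was called, with a log2 fold change of 0.36 (SE 0.092, adjusted p = 0.0059 by edgeR). This is 12.5% called, against 24.6% of all genes, and the median log2 fold change of the 8 was -0.01. CYP11A1, which makes pregnenolone, had 3, 0 and 0 counts in si-nc and 4, 2 and 7 in si-SRSF11, and STAR, which brings cholesterol to it, had 2, 3 and 3 and then 3, 1 and 6. CYP11B2, which makes aldosterone, had 0 counts in all libraries.

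Of 11 genes of steroid conjugation, 6 were tested, 2 were higher and 1 was lower, against 13.2% and 11.4% of all genes, with a median log2 fold change of 0.04 against 0.00. The count of calls fell from 3 to 1 without si-nc 2. SULT2B1, which sulfates cholesterol and pregnenolone, fell from 3.14 ± 0.936 to 1.60 ± 0.248 CPM (log2 fold change -0.98, SE 0.27, adjusted p = 0.0095 by edgeR), a call lost without si-nc 2 (-0.75, adjusted p = 0.081). PAPSS2, which makes the sulfate donor, rose by 0.43 on the log2 scale (SE 0.091, adjusted p = 0.0014). STS, which removes sulfate from steroids, had a log2 fold change of 0.43 (SE 0.15, adjusted p = 0.040), a call lost in 3 of 7 other settings and in 5 of 6 fits with a library left out (adjusted p up to 0.14). SULT1E1, UGT2B15 and UGT2B17 had 0 counts in all libraries.

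HSD3B7 and HSD17B4 both belong to bile acid synthesis. Of 15 other genes of that pathway 7 were tested and 1 was called, SCP2, the peroxisomal sterol carrier and thiolase, with a log2 fold change of 0.21 (SE 0.060, adjusted p = 0.014 by edgeR). The share called was 14.3%, against 24.6% of all genes. The call of SCP2 was lost without si-nc 1 (adjusted p = 0.12) and without si-SRSF11 2 (0.055). CYP7A1 and CYP7B1, 2 hydroxylases of the pathway, had 0 counts in all libraries.

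Peroxisomal beta-oxidation is the pathway of HSD17B4. Of 16 other genes of it, 14 were tested, 6 were higher and 1 was lower, against 13.2% and 11.4% of all genes, with a median log2 fold change of 0.19 against 0.00. ACOX3, an oxidase for branched chains, had 208, 308 and 250 counts in si-nc and 401, 391 and 434 in si-SRSF11 (log2 fold change 0.59, SE 0.10, adjusted p = 2.5e-04 by edgeR). CAT, which removes the peroxide formed, rose by 0.21 on the log2 scale (SE 0.052, adjusted p = 0.0046 by edgeR), and ABCD3, an importer, by 0.22 (SE 0.055, adjusted p = 0.0060). The list overlaps that of bile acids in SCP2, and its count of calls was 4 without si-nc 1.

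The mitochondrial partners were read in the same way. Of 6 genes of mitochondrial fatty acid synthesis, the pathway of HSD17B8, 2 were called and both were higher, with a median log2 fold change of 0.15. This is 33.3% against 24.6% of all genes, and the count was 1 in 4 of the 6 fits with a library left out. MCAT rose by a log2 fold change of 0.32 (SE 0.068, adjusted p = 0.0013 by edgeR). NDUFAB1, the acyl carrier protein, had a log2 fold change of 0.17 (SE 0.056, adjusted p = 0.031), a call lost in 4 of 6 fits with a library left out. CBR4, the partner subunit of HSD17B8, went from 47.1 ± 1.58 to 43.9 ± 1.24 CPM and was not called (log2 fold change -0.10, adjusted p = 0.23).

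Of 6 genes that work with HSD17B10, 3 were called and all 3 were higher, against 24.6% called and 13.2% higher over all genes, with a median log2 fold change of 0.21 against 0.00. TRMT10C, the methyltransferase subunit of mitochondrial RNase P, had 288, 321 and 341 counts in si-nc and 522, 437 and 474 in si-SRSF11 (log2 fold change 0.51, SE 0.089, adjusted p = 2.2e-04 by edgeR). ELAC2, which cuts the other end of the transfer RNAs, rose by 0.22 on the log2 scale (SE 0.050, adjusted p = 0.0027). ECHS1, the hydratase before HSD17B10 in isoleucine breakdown, had a log2 fold change of 0.15 (SE 0.049, adjusted p = 0.032), a call lost in 4 of 6 fits with a library left out.

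Of 12 other genes of fatty acid elongation, the cycle of HSD17B12, 8 were tested and 1 was called, which is 12.5% against 24.6% of all genes. HACD3, a dehydratase of the cycle, rose from 115.7 ± 2.55 to 139.3 ± 1.80 CPM (log2 fold change 0.27, SE 0.046, adjusted p = 1.9e-04 by edgeR), and the median was -0.01. ELOVL4 had 0 counts in all libraries.

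Of 16 lipid droplet genes, which share a site with HSD17B11, 14 were tested, 2 were higher and 2 were lower. This is 28.6% called, close to the 24.6% of all genes, with a median log2 fold change of 0.04 against 0.00. PNPLA2, the triglyceride lipase, fell by 0.31 on the log2 scale (SE 0.047, adjusted p = 3.7e-05 by edgeR), and FITM2, which helps droplets form, fell by 0.42 (SE 0.085, adjusted p = 8.6e-04). DGAT1, which makes triglyceride, rose by 0.29 on the log2 scale (SE 0.050, adjusted p = 1.8e-04). CIDEC, which fuses droplets, had a log2 fold change of 0.59 (SE 0.18, adjusted p = 0.019), a call lost without si-nc 1 (adjusted p = 0.067) and without si-nc 2 (0.084).

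**Figure D5:**
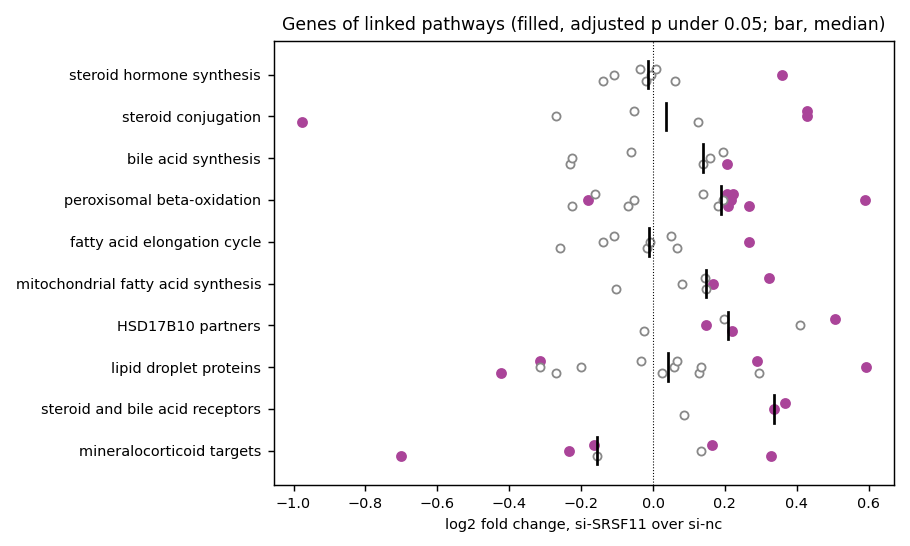
Log2 fold change of si-SRSF11 over si-nc (horizontal axis) for each tested gene of 10 lists linked to the dehydrogenases, one row a list. Points are genes, filled where the adjusted p is under 0.05, and black bars are list medians. The medians run from -0.15 (mineralocorticoid targets, 7 genes tested) to 0.34 (receptors, only 3 genes tested). The peroxisomal list has 7 filled points of 14, or 50%, against 24.6% of all genes tested.

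The cells carried the markers of colorectal epithelium and few of others. All 11 epithelial markers were tested, with a summed level of 6040 to 6413 CPM in si-nc and 6112 to 6548 CPM in si-SRSF11. CDX1 and CDX2 were the 2 called, both higher, which is 18.2% called against 24.6% of all genes. KRT20 and CEACAM5 lay near 1 CPM. Markers of steroidogenic cells summed to 2.14 to 3.16 and 1.91 to 3.01 CPM, 2 of 8 tested, with NR5A1 at 0 in all si-nc libraries and at 0, 0 and 4 counts in si-SRSF11. Of this list INHA was called lower (log2 fold change -1.26, SE 0.46, adjusted p = 0.048 by edgeR), a call lost in 5 of 6 fits with a library left out. Markers of trophoblast, where HSD3B1 is high, summed to 0.896 to 1.58 and 1.04 to 1.91 CPM, with none of 8 tested and CSH1 at 0. Markers of fibroblasts and blood summed to 19.7 to 23.2 and 24.7 to 29.2 CPM, carried by COL1A1 and PDGFRB, with PTPRC at 0. PDGFRB was higher in si-SRSF11 (log2 fold change 0.70, SE 0.12, adjusted p = 2.3e-04 by edgeR), and its part in the other results was not tested. In bulk RNA, fewer cells of a type and less RNA per cell cannot be told apart.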

How the data were processed

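RNA from LoVo cells was sequenced in 3 si-nc and 3 si-SRSF11 libraries. The authors deposited raw gene counts in 1 table, with no normalization. The submitters' processing notes name hg38, and all 58735 genes of the table match GENCODE 29 in start, end and exon length. The aligner and the counting program are not given in the sources used here, nor whether counting used strand, so reads of overlapping genes cannot be told apart.

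Samples were grouped by their labels. A gene was tested if 3 or more libraries held 10 or more counts of it. After TMM scaling, the quasi-likelihood F test of edgeR (4.0.16, in R 4.3.3; glmQLFit, glmQLFTest) compared the conditions, with Benjamini-Hochberg adjustment over 15801 genes. The standard error came from the F statistic. CPM used TMM-scaled library sizes, and TPM the deposited exon lengths. The pseudocount for log2 CPM was 0.5. An exact permutation test of 3 against 3 has 20 arrangements and cannot go below 0.10, so none is quoted. Replicates of a group differed by more than sampling noise (chi-square per degree of freedom 2.08 to 5.42), and all 6 libraries were kept.

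The alternatives were RLE, library-size and upper-quartile scaling, DESeq2 (version 1.42.0), no filter, a filter at 1 CPM, a block for replicate numbers, and fits with 1 library removed. The members and gene lists were chosen with earlier results of these data known. Named genes are the 10 members, from each list other than the markers up to 4 genes with the smallest adjusted p under 0.05 and any gene said to be at 0, the 3 protein-coding genes most correlated with HSD3B1, the genes next to it in the ranking of rises, its neighbours within 250 kb and SRSF11. Other names were chosen after their values were seen, among them CBR4, CYP11A1, STAR, TSPO, STARD3, FDX1, FDXR, HSD17B3, the markers and genes that overlap a member. Sequence identity was computed with Biopython (version 1.88). Some genes and sequences that these rules would name are not reported here.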

Additional observations from a re-analysis of the deposited data

How the results depend on the processing

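HSD17B4 and HSD17B8 kept their direction and call in all 7 other settings and all 6 fits with a library left out. HSD3B1 had log2 fold changes of 1.16 to 1.19 in the 7 settings. The relatives called numbered 3 to 4 in the other settings and 2 to 4 with a library left out, 2 without si-nc 3 and without si-SRSF11 2. The value of HSD17B11, near 0, changed sign to -0.021 under library-size scaling, and ran from -0.015 to 0.054 with a library left out (negative without si-nc 1, si-SRSF11 1 or si-SRSF11 3). The log2 ratio of HSD17B8 to HSD17B4 in level per length in si-nc was 0.51 with all exon bases and -1.14 with the longest coding transcript. That transcript has 2881 nt against 10664 exon bases for HSD17B4, and 990 nt against 1171 for HSD17B8. Over all genes, 3886 were called, 3072 with DESeq2, 2733 to 3877 with a library left out. Library-size scaling made 40.9% of calls higher, against 53.6%. Replicate numbers are shared between groups, but same-numbered libraries deviated together only weakly (r = 0.00528, 0.0437 and 0.0531), although each library correlated best with its own number. The replicate block gave 4036 calls in all and 4 among the relatives, and changed no call of a dehydrogenase of the set. Counts under 10 limit HSD3B2, HSD17B2 and the pseudogenes.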

Other observations

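Receptors for steroids and bile acids, and related nuclear regulators, were mostly near 0 counts. Of 14 receptors and regulators 3 were tested, and PGR, NR1H4 and NR0B1 had 0 counts in all libraries. VDR, the vitamin D receptor, had 844, 905 and 985 counts in si-nc and 1243, 1308 and 1123 in si-SRSF11 (log2 fold change 0.34, SE 0.063, adjusted p = 4.1e-04 by edgeR). NR5A2, an orphan receptor of gut and liver, had a log2 fold change of 0.37 (SE 0.13, adjusted p = 0.044), a call lost in all 6 fits with a library left out.

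HSD11B2 protects the mineralocorticoid receptor NR3C2, which had 4, 2 and 11 counts in si-nc and 8, 9 and 7 in si-SRSF11. Of 9 targets of that receptor 7 were tested, 2 were higher and 3 were lower, against 13.2% and 11.4% of all genes, with a median log2 fold change of -0.15 against 0.00. PER1, a clock gene, had 1389, 1392 and 1434 counts in si-nc and 897, 933 and 931 in si-SRSF11 (log2 fold change -0.70, SE 0.052, adjusted p = 2.5e-09 by edgeR). NEDD4L, the ligase that removes the sodium channel, fell by 0.23 on the log2 scale (SE 0.051, adjusted p = 0.0017), and the channel subunit SCNN1A rose by 0.33 on that scale (SE 0.082, adjusted p = 0.0050), with SCNN1G at 0 counts in all libraries.

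HSD17B1P1, a pseudogene on chromosome 17 chosen after its values were seen, had 78, 88 and 115 counts in si-nc and 56, 56 and 49 in si-SRSF11. The groups did not overlap, with a log2 fold change of -0.89 (SE 0.18, adjusted p = 9.0e-04 by edgeR). HSD17B1 itself, the oestradiol-forming enzyme, had 12.1 ± 0.813 and 11.6 ± 1.62 CPM and was not called (log2 fold change -0.06, adjusted p = 0.76). How reads that fit both genes were assigned was not tested.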
